A study of Mus musculus with 27 samples.

Results

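Complement is the cascade of serum proteins that tags, opsonises and lyses targets, and the liver makes most of it. The 33 genes described here code for its components, receptors and regulators, and were chosen by name from the 55414 genes of the count table, each matched by its Ensembl identifier to 1 gene. They comprise 8 genes of the classical pathway (C1qa, C1qb, C1qc, C1ra, C1rl, C1s1, C2 and C4b) and 5 of the lectin pathway (Masp1, Masp2, Mbl1, Mbl2 and Fcna). Another 3 belong to the alternative pathway (Cfb, Cfd and Cfp), followed by C3 itself and 7 genes of the terminal pathway (Hc, which codes for C5, C6, C7, C8a, C8b, C8g and C9). The list ends with the receptors C3ar1 and C5ar1 and 7 regulators (Cfi, Serping1, C4bp, Cd55, Cd59a, Clu and Vtn). By textbook source, 22 are made mainly by hepatocytes, 7 (C1qa, C1qb, C1qc, Fcna, Cfp, C3ar1 and C5ar1) by macrophages and other myeloid cells, and 4 (C7, Cfd, Cd55 and Cd59a) by other or several cell types. Of the 33 genes, 31 reached the mean of 10 counts per library needed for a test, and Cfd and C7 did not.

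RNA from whole liver of 27 female Balb/c mice, 8 weeks old at purchase, was sequenced in bulk. All mice received intraperitoneal injections for 2 weeks, of olive oil in the 13 healthy mice and of CCl4, a hepatotoxin that induces fibrosis, in the other 14. The healthy groups were control (PBS into the tail vein, n = 4), 4MU (n = 3), siLuc-LNP (n = 3) and siHAS2-LNP (n = 3), and the fibrotic groups were CCl4 (n = 2), CCl4 + 4MU (n = 4), CCl4 + siLuc-LNP (n = 4) and CCl4 + siHAS2-LNP (n = 4). 4MU (4-methylumbelliferone, an inhibitor of hyaluronan synthesis) was gavaged daily at 600 mg/kg, whereas siRNA against hyaluronan synthase 2 (siHAS2) or luciferase (siLuc, the non-targeting control) was injected in lipid nanoparticles (LNP) into the tail vein at 1 mg/kg and then 0.5 mg/kg. Both treatments began before the first CCl4 dose, and control mice were gavaged with the vehicle of 4MU. The labels name no injection into the tail vein for the 4MU and CCl4 groups, and whether the CCl4 mice received it or the vehicle gavage is not given in the sources used here.

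The classical pathway begins with C1q, which binds immune complexes and debris and activates the proteases C1r and C1s. The lectin pathway begins with mannose-binding lectins and ficolins, which recognise sugars and activate the MASP proteases. Both cleave C4 and C2, the alternative pathway amplifies through factor B, factor D and properdin, and all 3 converge on C3 and then on the membrane attack complex of C5b to C9. In the liver, hepatocytes secrete most plasma components as acute-phase or constitutive proteins, whereas Kupffer cells and recruited macrophages supply C1q and carry the receptors for C3a and C5a.

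Values are given as CPM, the count of a gene relative to its library's total after TMM scaling, and differences are log2 fold changes with their standard error (SE) from edgeR's quasi-likelihood test, adjusted over all 14114 tested genes with a threshold of 0.05. Total counts ranged from 7044386 to 29425937 per library, and the 33 genes together took 1.77% to 2.99% of them. Has2, the target of siHAS2, had 0 counts in 25 of the 27 libraries, so that these data cannot show its knockdown. Of the pair of CCl4 mice, mouse 2 had the lowest summed level of 6 hepatocyte markers of all mice, 77400 CPM, against 134268 CPM in mouse 1 and 170271 to 204620 CPM in control mice. Every comparison with the CCl4 group rests on these 2 mice. For the 33 genes it is therefore also given without mouse 2 where it called any of them. The cell markers and the other lists of genes were not refitted without that mouse. In bulk liver, fewer cells of a type and less RNA per cell cannot be told apart. The labels do not say whether the mice of a group shared a cage or a day, so that p-values measure the spread between these mice.

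To show the regulatory sequence in front of the genes on which the results turn, the 250 bases before the start of the canonical transcript were read from GRCm39 with GENCODE vM39. They are given for the C1q chains, which rose in the 4MU arm and fell in the siHAS2-LNP arm, and for C8a, C8g and C9, terminal components with different CCl4 effects. Each is printed 5′ to 3′ on the strand of the gene, and the capitals mark matches to 1 of 5 motifs searched on both strands, with overlaps allowed: HNF1 (GTTAATNAT), HNF4 (CAAAGTCCA), C/EBP (TTGCNNAA), STAT (TTCNNNGAA) and PU.1 (GAGGAAGT).
C1qa, chr4:136626162-136626411, minus strand: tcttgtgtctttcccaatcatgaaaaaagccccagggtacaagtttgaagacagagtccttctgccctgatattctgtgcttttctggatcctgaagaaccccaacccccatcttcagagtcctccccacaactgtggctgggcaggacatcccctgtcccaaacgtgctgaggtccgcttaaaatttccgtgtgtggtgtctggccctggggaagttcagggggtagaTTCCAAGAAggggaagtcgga
C1qb, chr4:136613512-136613761, minus strand: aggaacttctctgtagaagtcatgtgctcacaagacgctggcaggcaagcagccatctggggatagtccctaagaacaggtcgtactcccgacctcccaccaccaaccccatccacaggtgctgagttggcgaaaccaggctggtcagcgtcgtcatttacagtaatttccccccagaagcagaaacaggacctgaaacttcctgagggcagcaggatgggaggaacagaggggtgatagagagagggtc
C1qc, chr4:136620377-136620626, minus strand: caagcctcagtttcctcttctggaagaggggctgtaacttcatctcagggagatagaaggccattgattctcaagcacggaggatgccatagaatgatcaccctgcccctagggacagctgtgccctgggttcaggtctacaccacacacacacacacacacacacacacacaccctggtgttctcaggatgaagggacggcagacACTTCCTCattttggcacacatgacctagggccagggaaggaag
C8a, chr4:104733615-104733864, minus strand: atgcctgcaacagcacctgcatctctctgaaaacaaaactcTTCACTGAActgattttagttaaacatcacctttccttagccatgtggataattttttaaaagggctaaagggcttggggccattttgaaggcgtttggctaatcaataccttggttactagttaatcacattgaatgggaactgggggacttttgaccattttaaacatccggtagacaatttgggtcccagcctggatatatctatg
C8g, chr2:25390626-25390875, minus strand: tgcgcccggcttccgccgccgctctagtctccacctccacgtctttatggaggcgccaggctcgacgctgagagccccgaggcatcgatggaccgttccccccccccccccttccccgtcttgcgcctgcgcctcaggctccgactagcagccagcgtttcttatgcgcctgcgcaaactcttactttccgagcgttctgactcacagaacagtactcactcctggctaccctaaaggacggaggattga
C9, chr15:6474558-6474807, plus strand: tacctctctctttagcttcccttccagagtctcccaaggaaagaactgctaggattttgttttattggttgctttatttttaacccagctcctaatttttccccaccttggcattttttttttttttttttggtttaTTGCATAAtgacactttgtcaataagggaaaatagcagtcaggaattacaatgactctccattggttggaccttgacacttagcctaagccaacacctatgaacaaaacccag

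The genes C1qa, C1qb and C1qc (ENSMUSG00000036887, ENSMUSG00000036905 and ENSMUSG00000036896) lie together on chromosome 4 (chr4:136606009-136626161, GRCm39), and the printed windows hold a STAT match that starts 21 bases before C1qa and a PU.1 match that starts 44 bases before C1qc. No match to the 5 motifs was present in the window of C1qb or C8g. A C/EBP match started 113 bases before C9 and a STAT match 209 bases before C8a. Over all 33 genes, 6 windows held the C/EBP motif, all of hepatocyte-made genes (C1ra, C1rl, C1s1, C3, C6 and C9), and 9.34% of the windows of 21770 protein-coding genes did. The HNF1 motif was found before Hc and C4bp, against 0.74% of all windows, the STAT motif in 4 windows (7.7% of all), the PU.1 motif in 1 (2.08%) and the HNF4 motif in none (0.372%). Such a match is a string of letters and not a measured binding site.

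In control mice, levels were compared per kilobase of the canonical transcript. C3, the central component, stood at 2228 ± 554 CPM per kb (SD, n = 4) and Vtn, vitronectin, which blocks the terminal complex, at 2112 ± 323, and these levels did not differ beyond their spread. Below them followed Clu, clusterin, another inhibitor of the terminal complex, at 754 ± 104 CPM per kb, Serping1, the C1 inhibitor, at 596 ± 106 and Cfi, the protease factor I, at 502 ± 32.1. Mbl2 with 470.4 ± 58.4, C8g with 420.1 ± 30.7 and C4b with 381 ± 32.1 CPM per kb were next. From Clu to C4b, neighbours in this order lay within the sum of their SDs. The myeloid genes lay below the genes named so far, with C1qa at 67.6 ± 11.6, C1qc at 30.2 ± 5.87, Fcna at 23.4 ± 7.30, Cfp at 22.3 ± 2.96 and C1qb at 19.5 ± 5.20 CPM per kb. Some hepatocyte-made genes without a value here, such as C6, were lower than the C1q chains. The receptors were near the bottom, C3ar1 at 0.455 ± 0.185 and C5ar1 at 0.275 ± 0.0376 CPM per kb. C3 alone supplied 34.3% to 51.5% of the counts of the 33 genes in each library.

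To ask how fibrosis altered complement as a whole, the CCl4 effect was averaged over the 4 treatment arms, 14 CCl4 mice against 13 healthy mice. Of 31 genes tested, 21 passed the threshold, 4 higher and 17 lower. Over all tested genes, 51.9% passed, 26.3% higher and 25.6% lower. The median log2 fold change of the 31 genes was −0.25 against −0.015 over all genes. Of the 22 hepatocyte-made genes, 13 fell and 2 rose (C9 and Clu), and of the 7 myeloid genes 3 fell and 1 rose (C3ar1). The plot of the mean CCl4 effect shows all 31 genes by their role. Mbl1 and Mbl2 were the 2 of these 31 genes whose CCl4 and healthy mice did not overlap. Outside the list, Itgax, Trem2, Gpnmb, Ms4a7 and Col1a1 did not overlap either, all higher with CCl4. The share of all tested genes without overlap was not counted, so that this is a description.

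**Figure D1:**
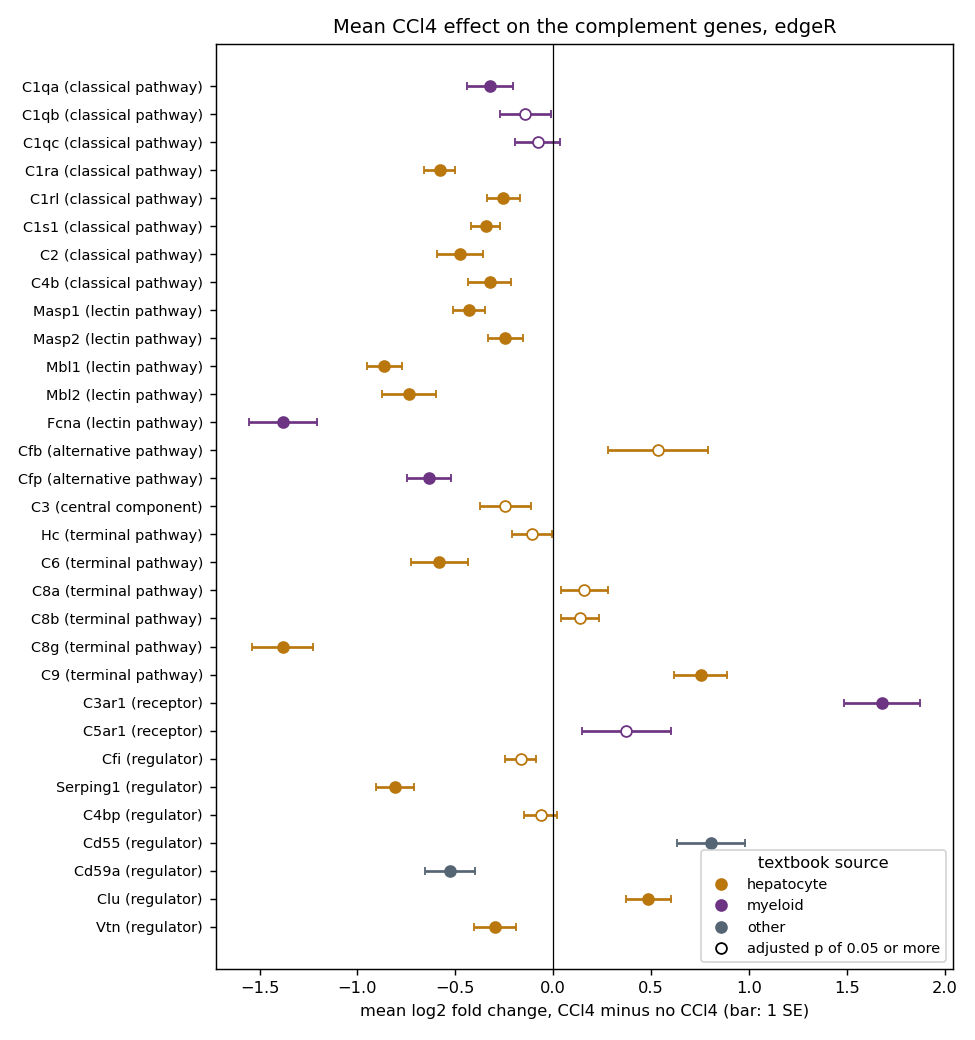
Mean log2 fold change of CCl4 against healthy mice (x axis, bars 1 SE) for the 31 tested complement genes (y axis, in order of their role), coloured by textbook source, with filled points for an adjusted p under 0.05. All 5 lectin pathway genes lie left of 0, while C3ar1 lies farthest right at 1.68 and C8g and Fcna farthest left at −1.38.

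All 5 lectin pathway genes fell, Masp2 with less support than the others. Mbl1, mannose-binding lectin A, had a lowest, median and highest level of 102, 133 and 176 CPM in the 14 CCl4 mice and of 202, 256 and 331 CPM in the 13 healthy mice. Mbl2, mannose-binding lectin C, had 197, 429 and 581 CPM with CCl4 and 612, 692 and 889.9 CPM without. Every CCl4 mouse was therefore below every healthy mouse for both lectins. Mbl1 fell by 0.86 (SE 0.0894, adjusted p = 1.66e-08) and Mbl2 fell by 0.73 (SE 0.138, adjusted p = 9.58e-05) on the log2 scale. Mbl1 was also the gene that passed the threshold in all 4 arms, with log2 fold changes of −1.19 without treatment, −0.54 under 4MU, −0.88 under siLuc-LNP and −0.85 under siHAS2-LNP. The call under 4MU was lost without 4MU mouse 2, without CCl4 + 4MU mouse 3 and without the filter on low counts (adjusted p up to 0.125). The proteases that these lectins carry changed less, Masp1 by −0.43 (adjusted p = 1.05e-04) and Masp2 by −0.25 (adjusted p = 0.0249). The median of Masp2 was 113 CPM with CCl4 and 112 CPM without, not lower, and its call was lost without CCl4 mouse 2, under the replicate block and without the filter on low counts (adjusted p up to 0.0966).

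Fcna, ficolin A, a sugar-binding lectin of macrophages, ranged over 5.45, 11.9 and 27.2 CPM (lowest, median and highest) with CCl4 and over 19.2, 30.0 and 42.0 CPM in healthy mice. It fell by 1.38 (SE 0.172, adjusted p = 3.68e-07), and among CCl4 mice only mouse 4 of CCl4 + 4MU, at 27.2 CPM, reached into the healthy range. In CCl4 + siHAS2-LNP mice its level was 6.49, 6.10, 5.45 and 9.33 CPM, against 29.6, 31.5 and 35.4 CPM in siHAS2-LNP mice, a fall of 2.27 on the log2 scale.

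**Figure D2:**
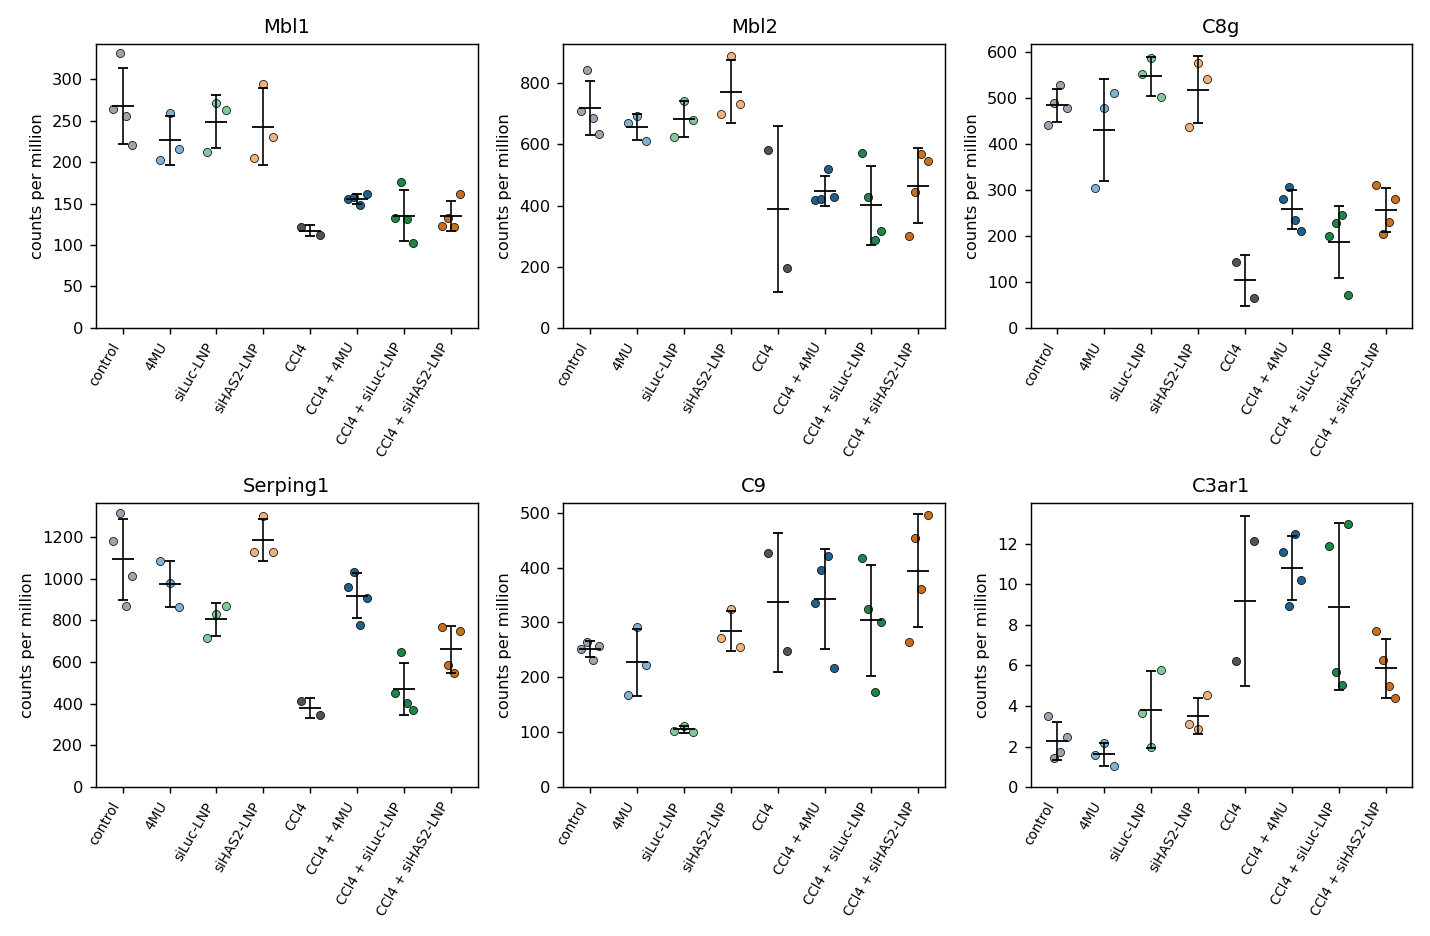
CPM (y axis, from 0) of Mbl1, Mbl2, C8g, Serping1, C9 and C3ar1 in every mouse of the 8 groups (x axis), with the mean and SD of each group. The CCl4 groups lie below the healthy groups for Mbl1 and Mbl2 without overlap, and C3ar1 lies at 4.401 to 12.9 CPM with CCl4 and at 1.06 to 5.80 CPM without.

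In the classical pathway, 6 of 8 genes fell and none rose. The proteases C1ra (−0.58, adjusted p = 1.57e-06), C1rl (−0.25) and C1s1 (−0.34), their substrates C2 (−0.48) and C4b (−0.32), and C1qa (−0.32) passed the threshold. C1ra had a lowest, median and highest level of 100.3, 158 and 226 CPM with CCl4 and of 162, 216 and 270.4 CPM without, with overlapping ranges. C1qb (−0.14, adjusted p = 0.367) and C1qc (−0.08, adjusted p = 0.586) did not pass. The calls of C1rl and C4b were lost without CCl4 mouse 2, and that of C1qa without CCl4 mouse 1, 4MU mouse 2 or siLuc-LNP mouse 3. Because reads that map to several places were not counted, the values of C1ra, C1s1 and C4b, which have near copies in C1rb, C1s2 and C4a, are uncertain.

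C3 did not pass the threshold in the mean CCl4 effect (−0.24, SE 0.131, adjusted p = 0.120). In the alternative pathway, Cfp, properdin, which stabilises the C3 convertase, fell by 0.63 (SE 0.114, adjusted p = 5.52e-05). Cfb, factor B, had a log2 fold change of 0.54 (SE 0.257, adjusted p = 0.0838), and its levels of 1.37 to 12.4 CPM in healthy mice and 3.25 to 17.1 CPM with CCl4 overlapped. Cfd, factor D or adipsin, which is made by adipocytes, was hardly detected, at 0 to 0.171 CPM, and the summed level of 4 adipocyte markers was 0.768 to 2.60 CPM in control mice. That sum came mainly from Cidec, at 0.768 to 6.28 CPM over all mice. Adipoq reached at most 0.118 CPM and Plin1 at most 0.0391 CPM, and Lep had 0 counts.

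The chains of the membrane attack complex moved in different directions. C8g, the lipocalin chain of C8, fell most, with a lowest, median and highest level of 64.2, 229 and 310.4 CPM with CCl4 and of 303, 501 and 586 CPM in healthy mice. The ranges touched where 2 CCl4 mice, at 305 and 310.4 CPM, lay above the lowest 4MU mouse at 303 CPM. The log2 fold change was −1.38 (SE 0.154, adjusted p = 5.63e-08). The other 2 chains of the same protein did not pass, C8a with 0.16 (SE 0.120, adjusted p = 0.275) and C8b with 0.14 (SE 0.0992, adjusted p = 0.256). The log2 ratio of C8g to C8a CPM was 0.056 ± 0.567 (SD) in control and −2.01 ± 0.676 in CCl4 mice, whereas that of C8b to C8a was −1.88 ± 0.407 and −1.82 ± 0.145. C9, which polymerises into the pore, was the terminal component that rose, by 0.75 (SE 0.135, adjusted p = 5.41e-05), from a median of 252 CPM in healthy mice to 349 CPM. The siLuc-LNP mice, whose C9 was lowest of all at 102, 112 and 101 CPM, entered that mean, and siLuc was the single arm in which C9 passed (1.53). C6 fell by 0.58 (SE 0.147, adjusted p = 0.00191) and Hc had −0.11 (adjusted p = 0.397).

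Among the regulators, Serping1, which inactivates C1r, C1s and the MASPs, fell by 0.81 (SE 0.0970, adjusted p = 1.99e-07). Its lowest, median and highest level was 346, 617 and 1031 CPM with CCl4 and 716, 1011 and 1312 CPM without, and the 6 CCl4 mice within the healthy range were all 4 given 4MU and 2 given siHAS2-LNP. Cd55, which dissociates C3 convertases on the cell surface, rose by 0.81 (adjusted p = 3.69e-04) and Clu rose by 0.49 (adjusted p = 9.96e-04). Cd59a, which blocks C9 at the membrane, fell by 0.53 (adjusted p = 0.00119) and Vtn fell by 0.30 (adjusted p = 0.0227). The call of Vtn was lost without CCl4 mouse 2. Cfi (−0.17) and C4bp (−0.064), which together degrade C4b, did not pass. Cd55 and Cd59a also have near copies, Cd55b and Cd59b, that could share reads.

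C3ar1, the receptor of the anaphylatoxin C3a, rose more than any other of the 31 genes. Its lowest, median and highest level was 4.401, 8.31 and 12.9 CPM with CCl4 and 1.06, 2.45 and 5.80 CPM in healthy mice. The log2 fold change was 1.68 (SE 0.193, adjusted p = 1.02e-07), and by arm it was 2.01 without treatment, 2.73 under 4MU and 1.21 under siLuc-LNP. Under siHAS2-LNP it was 0.77 (SE 0.374, adjusted p = 0.187) and did not pass. The call of C3ar1 under siLuc-LNP held with only 3 of the 7 mice left out in turn. It was also lost with the compared groups alone (adjusted p up to 0.105). C5ar1, the receptor of C5a, was below 1.77 CPM in every mouse and had 0.37 (SE 0.228, adjusted p = 0.175). The 6 monocyte and macrophage markers all rose in the same comparison, and their summed level was 55.3 to 111 CPM in control, 39.7 to 99.3 in 4MU, 116 to 183 in siLuc-LNP and 135 to 153 CPM in siHAS2-LNP mice. With CCl4 it was 251 to 288 CPM in CCl4, 417 to 678 in CCl4 + 4MU, 214 to 531 in CCl4 + siLuc-LNP and 132 to 268 CPM in CCl4 + siHAS2-LNP mice, the last overlapping its healthy group. Their part in the rise of C3ar1 was not tested.

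To resolve the C1q chains, which moved in opposite directions between arms, their levels were read mouse by mouse. C1qa stood at 91.1, 61.4, 69.7 and 71.6 CPM in control, 36.3, 64.1 and 56.7 in 4MU, 78.2, 62.0 and 102 in siLuc-LNP and 74.3, 74.3 and 89.4 in siHAS2-LNP mice. In the fibrotic groups it stood at 56.5 and 66.1 CPM in CCl4, 82.5, 64.2, 75.6 and 133 in CCl4 + 4MU, 63.3, 65.6, 51.5 and 48.7 in CCl4 + siLuc-LNP and 31.5, 38.0, 25.5 and 34.3 CPM in CCl4 + siHAS2-LNP mice. The CCl4 + siHAS2-LNP mice were the lowest fibrotic group, without overlap with any other fibrotic group, and CCl4 + 4MU mouse 4 was the highest of all 27 mice. C1qb and C1qc were likewise lowest in CCl4 + siHAS2-LNP among the fibrotic groups and highest in mouse 4 of CCl4 + 4MU, with 31.8, 36.2, 22.3 and 31.5 CPM and 42.0, 38.9, 32.9 and 32.3 CPM in CCl4 + siHAS2-LNP and 75.2, 51.7, 64.3 and 105.1 CPM and 79.1, 57.9, 67.8 and 121 CPM in CCl4 + 4MU mice.

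CCl4 lowered the C1q chains under siHAS2-LNP, by 1.30 for C1qa (SE 0.224, adjusted p = 3.25e-04), 1.13 for C1qb and 1.02 for C1qc, and raised them under 4MU, by 0.76, 1.07 and 1.14 (for C1qc SE 0.232, adjusted p = 8.64e-04). The rise of C1qa under 4MU (adjusted p = 0.0165) lost its call without 4MU mouse 1, without CCl4 + 4MU mouse 4 and with the compared groups alone (adjusted p up to 0.0995). The 4MU group, against which this rise was counted, held the lowest C1qa of all healthy mice, 36.3 CPM. No C1q chain passed between CCl4 + 4MU and CCl4 mice. Without treatment (−0.26, −0.18 and −0.13) and under siLuc-LNP (−0.50, −0.32 and −0.31) no chain passed. The difference between the 4MU and siHAS2-LNP arms was not tested. The 4MU arm differed from the untreated arm for C1qc (1.28, SE 0.348, adjusted p = 0.0356) but not past the threshold for C1qa (1.02, adjusted p = 0.0704) or C1qb (1.25, adjusted p = 0.0528). That call for C1qc held with only 5 of the 13 mice left out in turn and was lost without either CCl4 mouse. The log2 ratio of C1qc to C1qb CPM stayed between 0.066 and 0.27 in the means of the 8 groups. That of C1qa to C1qb was less even, at 0.59 ± 0.158 (SD) in control and 0.093 ± 0.0882 in CCl4 + siHAS2-LNP mice, without overlap between these groups.

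Kupffer cell markers were read beside C1q and Fcna, and did not move with C1q in every arm. Of 6 markers (Clec4f, Timd4, Vsig4, Marco, Cd5l and Adgre1), 4 fell in the mean CCl4 effect, 4 fell and none rose under siHAS2-LNP, and 2 rose and 1 fell under 4MU. Over all genes, 25.6% fell in the mean CCl4 effect, 5.09% fell under siHAS2-LNP, and 13.2% rose and 10.5% fell under 4MU. Their summed level was 302 to 472 CPM in control, 154 to 346 in 4MU, 229.9 to 422 in siLuc-LNP and 330.0 to 385 CPM in siHAS2-LNP mice. In fibrotic mice it was 262 to 283 CPM in CCl4, 199.5 to 393 in CCl4 + 4MU, 130.3 to 212 in CCl4 + siLuc-LNP and 97.2 to 136 CPM in CCl4 + siHAS2-LNP. The sum in CCl4 + siLuc-LNP mice thus lay below that of siLuc-LNP mice without overlap, although no C1q chain passed in that arm. Clec4f, a lectin of resident Kupffer cells, fell by 1.07 and Timd4, a receptor of resident macrophages, fell by 1.42, beside falls of 1.38 for Fcna and 0.63 for Cfp. The median of Adgre1 was not lower, at 14.1 CPM with CCl4 and 12.1 CPM in healthy mice. Marco had 0 counts in 1 mouse and the other 5 markers were detected in every mouse. The part of these cells in the levels of C1q, Fcna and Cfp was not tested.

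**Figure D3:**
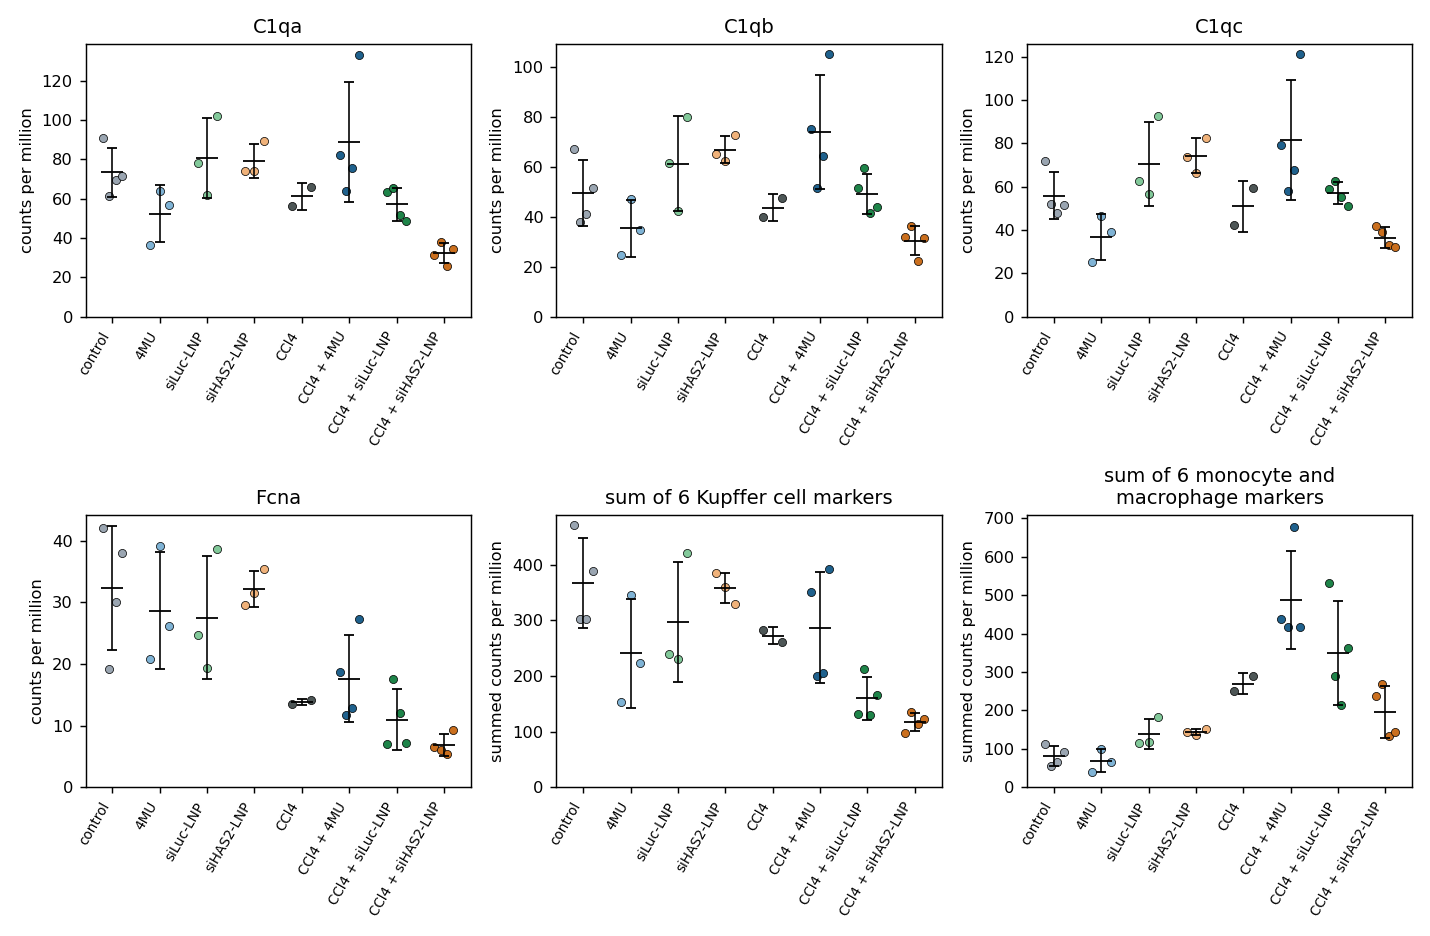
CPM of C1qa, C1qb, C1qc and Fcna and summed CPM of 6 Kupffer cell and 6 monocyte and macrophage markers (y axes, from 0) in every mouse of the 8 groups (x axes), with the mean and SD of each group. The means of all 3 C1q chains and Fcna are lowest in CCl4 + siHAS2-LNP among the fibrotic groups, as is the Kupffer cell sum at 97.2 to 136 CPM.

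The CCl4 effect was then read arm by arm. In CCl4 against control mice, 18 of 31 genes passed, 2 higher (C3ar1 and Cd55) and 16 lower, with 34.0% of all genes called, 18.0% higher and 16.1% lower. All 15 hepatocyte-made genes called there fell, with a median of −0.76 over the 22 genes, against −0.023 over all genes. C8g stood at 143 and 64.2 CPM against 440.5, 488, 526 and 478 CPM in control (−2.22, SE 0.367, adjusted p = 5.53e-05), and Serping1 at 415 and 346 against 1181, 1312, 867 and 1011 CPM (−1.52, SE 0.226, adjusted p = 1.47e-05). Neither overlapped. C3 stood at 7409 and 5920 CPM against 14871, 11855, 7894 and 11356 CPM and fell by 0.79 (adjusted p = 0.0422), a call kept with only 1 of the 6 mice left out (control mouse 3) and in 4 of 7 alternatives (adjusted p up to 0.298). Without CCl4 mouse 2, 7 genes passed: C1ra, Masp2, Mbl1, C6, C8g and Serping1 lower and C3ar1 higher. The hepatocyte markers fell beside them, 3 of 6 past the threshold, and their summed level was 77400 to 134268 CPM in CCl4 mice. Their part in these falls was not tested.

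In the other arms fewer genes passed. Under 4MU 6 passed, 5 higher (C1qa, C1qb, C1qc, C3ar1 and Clu) and 1 lower (Mbl1), against 23.7% of all genes, 13.2% higher and 10.5% lower. The call of Clu was lost without CCl4 + 4MU mouse 4 (adjusted p = 0.05404). The summed level of bile duct markers in that mouse was 121.4 CPM, the highest of all mice. It was 5.803, 9.566 and 10.96 CPM in the rest of its group. The part of this difference in the levels of Clu and C1q was not tested. Under siLuc-LNP 13 passed, 4 higher (C9, C3ar1, Cd55 and Clu) and 9 lower, against 24.2% of all genes, 13.0% higher and 11.2% lower, and 6 passed when only these 2 groups were fitted. Under siHAS2-LNP 9 passed, all lower, against 12.8% of all genes, 7.74% higher and 5.09% lower. These were the 3 C1q chains, Fcna, Cfp, Mbl1, C6, C8g and Serping1. The calls of C6 and C8g each held with only 3 of the 7 mice left out in turn. That of C6 was also lost in limma-voom (adjusted p up to 0.1155) and that of C8g under the replicate block (up to 0.07645). Of the 31 genes, 7 passed in no arm: Cfb, Hc, C8a, C8b, C5ar1, C4bp and Cd59a.

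To ask what each treatment changed in fibrotic liver, treated CCl4 mice were compared with CCl4 mice. With 4MU, 10 genes rose and none fell, all of them hepatocyte-made, against 18.3% of all genes, 8.28% higher. They were C1ra (0.98), C1rl (0.61), C4b (0.97), Masp1 (0.56), Masp2 (1.11), C3 (1.09), C8b (0.67), C8g (1.31), Serping1 (1.27) and Vtn (0.92). The median over the 22 hepatocyte-made genes was 0.58 against 0.037 over all genes. Mbl1 (0.41, SE 0.197, adjusted p = 0.142) and Mbl2 (0.20, SE 0.302, adjusted p = 0.666), the lectins whose CCl4 and healthy mice did not overlap, did not pass. The value of Mbl2 turned on the CCl4 mice, with 1.17 (adjusted p = 0.0196) without mouse 1 and −0.41 (adjusted p = 0.472) without mouse 2.

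Serping1 stood at 958, 1031, 777 and 906 CPM in CCl4 + 4MU against 415 and 346 CPM in CCl4 mice (SE 0.223, adjusted p = 9.53e-04). C1ra stood at 226, 206, 168 and 207 CPM against 104 and 100.3 CPM (SE 0.182, adjusted p = 0.00130), and Masp2 at 137, 144, 116 and 129.8 against 68.4 and 53.6 CPM (SE 0.207, adjusted p = 0.00133). For these 3 genes every CCl4 + 4MU mouse was above both CCl4 mice. C3 stood at 14575, 15516, 10716 and 15853 CPM against 7409 and 5920 CPM (SE 0.3004, adjusted p = 0.0149) and C8g at 279.7, 305, 234 and 211 against 143 and 64.2 CPM (SE 0.349, adjusted p = 0.0119), again without overlap.

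Without CCl4 mouse 2 no gene passed in this comparison. The log2 fold changes were then 1.11 for Serping1 (adjusted p = 0.0512), 0.92 for C1ra, 0.91 for Masp2, 0.91 for C3 and 0.82 for C8g, and without mouse 1 15 genes passed, all higher. Of the 6 hepatocyte markers, 4 rose in the same comparison and their sum was 158106 to 188086 CPM in CCl4 + 4MU mice, and their part was not tested. The change with CCl4 under 4MU differed from that without treatment for 5 genes, all higher, against 5.67% of all genes, 2.72% higher. These were C1qc, C1ra (1.19), Masp2 (1.35), C6 (1.43) and Serping1 (1.43), and none passed without CCl4 mouse 2. In mice without CCl4, 4MU changed none of the 31 genes past the threshold in edgeR, 4 had an unadjusted p under 0.05, DESeq2 and limma-voom called none, and 0.00709% of all genes passed.

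**Figure D4:**
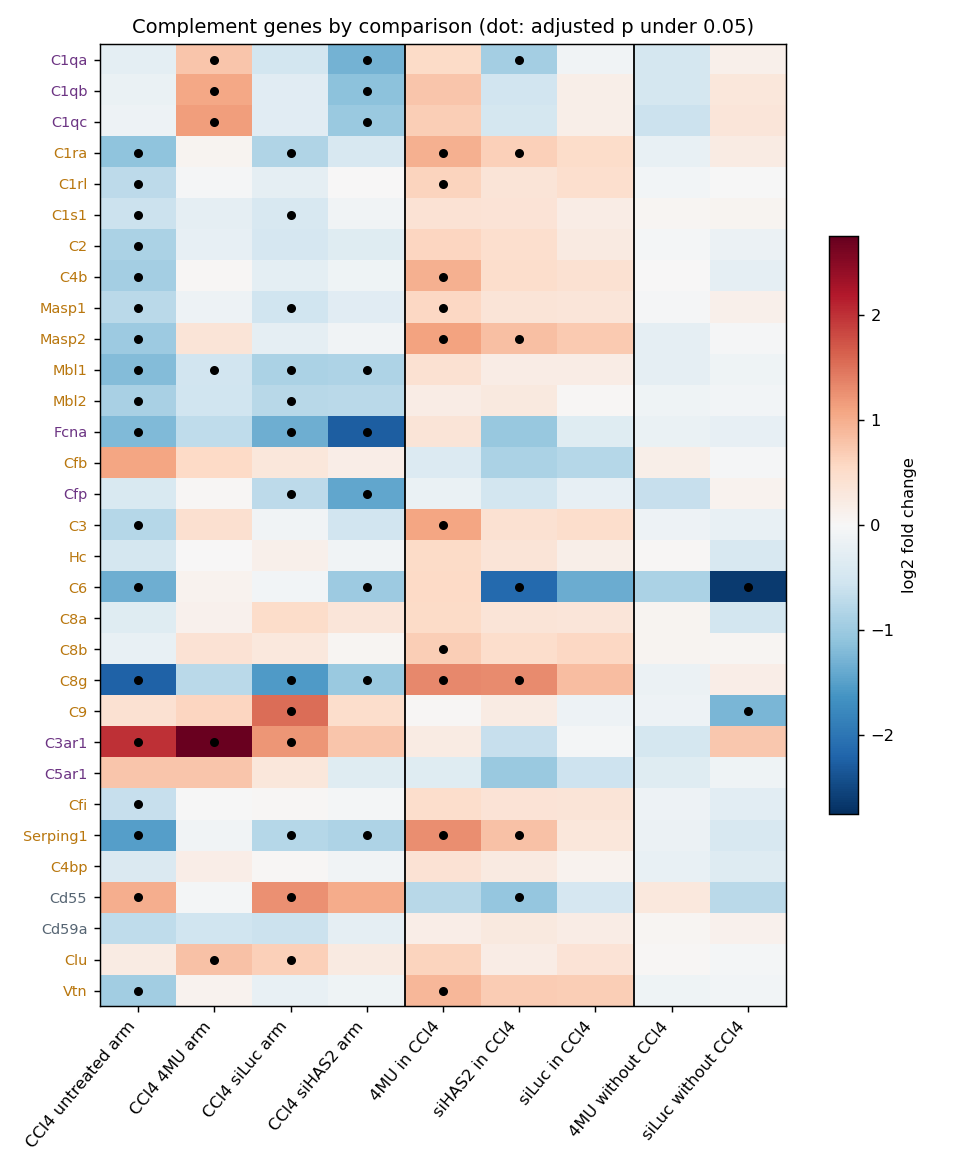
Log2 fold changes (colour) of the 31 tested complement genes (rows, labels coloured by textbook source) in 9 comparisons (columns), with a dot where the adjusted p was under 0.05. The column of 4MU in CCl4 holds 10 dots, all on higher values, and C6 carries the strongest fall, −2.62, in siLuc-LNP against control mice.

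With siHAS2-LNP, 7 genes passed against CCl4 mice, 4 higher and 3 lower, where 14.4% of all genes did, 7.11% higher and 7.33% lower. C1ra (0.67), Masp2 (0.83), C8g (1.31) and Serping1 (0.80) rose, and C1qa (−0.93), C6 (−2.14) and Cd55 (−1.06) fell. C8g was 310.4, 204, 230.3 and 280.0 CPM in CCl4 + siHAS2-LNP mice, above both CCl4 mice, and Serping1 was 768, 584, 546 and 748 CPM. Cd55 was 4.54, 4.54, 5.33 and 4.27 CPM against 8.07 and 11.5 CPM, and its call was lost whenever any 1 mouse of either group was left out. Of the 6 Kupffer cell markers 4 fell in the same comparison, and their part in the fall of C1qa was not tested. The sum of these markers was 262 to 283 CPM in CCl4 and 97.2 to 136 CPM in CCl4 + siHAS2-LNP mice. It was also low in CCl4 + siLuc-LNP mice, at 130.3 to 212.5 CPM, although C1qa did not pass between them and CCl4 mice. Without CCl4 mouse 2 only C6 passed, and without mouse 1 12 genes did. The comparisons of 4MU and of siHAS2-LNP share the same 2 CCl4 mice, so that their lists are not independent.

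The non-targeting siLuc-LNP changed none of the 31 genes past the threshold in fibrotic mice in edgeR, 7 had an unadjusted p under 0.05, DESeq2 called 2 and 0.248% of all genes passed. Its values for the 7 genes called with siHAS2-LNP were 0.51 for C1ra, 0.72 for Masp2, 0.84 for C8g, 0.30 for Serping1, −0.10 for C1qa, −1.37 for C6 and −0.46 for Cd55. Between CCl4 + siHAS2-LNP and CCl4 + siLuc-LNP mice none passed in edgeR, 6 had an unadjusted p under 0.05, DESeq2 called 1 and 1.09% of all genes passed. C1qa came nearest, with −0.83 (SE 0.210, adjusted p = 0.0515), its mice at 31.5, 38.0, 25.5 and 34.3 against 63.3, 65.6, 51.5 and 48.7 CPM without overlap. The change with CCl4 did not differ past the threshold for any gene between siLuc-LNP and no treatment (7 at an unadjusted p under 0.05, 0.00709% of all genes passed), or between siHAS2-LNP and siLuc-LNP (6 at an unadjusted p under 0.05, 0.0354% of all genes passed).

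C6, a component of the membrane attack complex made by hepatocytes, separated mice given nanoparticles from all others. It stood at 19.7, 15.6, 12.1 and 17.9 CPM in control, 5.73, 13.2 and 7.59 in 4MU, 6.56 and 6.32 in CCl4 and 12.4, 6.83, 8.16 and 10.3 CPM in CCl4 + 4MU mice. In mice given nanoparticles it stood at 1.83, 2.39 and 3.64 CPM in siLuc-LNP, 3.23, 2.50 and 2.99 in siHAS2-LNP, 1.60, 2.70, 2.70 and 2.98 in CCl4 + siLuc-LNP and 1.13, 1.27, 1.80 and 1.73 CPM in CCl4 + siHAS2-LNP mice. The 14 mice given nanoparticles thus lay at 1.13 to 3.64 CPM and the other 13 at 5.73 to 19.7 CPM, without overlap. C6 was the single complement gene of the 33 with such a split, which was noticed after its values were seen and is given as a description. The share of all tested genes with such a split was not counted.

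Of the planned comparisons, siLuc-LNP against control mice gave a log2 fold change of C6 of −2.62 (SE 0.298, adjusted p = 2.98e-05), a fall that kept its call in every alternative and with any 1 mouse left out. C9 was the other of the 2 genes called there, both lower, where 0.213% of all genes passed and 0.128% were lower. C9 stood at 102, 112 and 101 CPM against 252, 265, 232 and 257 CPM (−1.25, SE 0.269, adjusted p = 0.0449), without overlap, but its call was lost with any 1 mouse left out, and siHAS2-LNP mice had 272, 325 and 256 CPM. Between siHAS2-LNP and siLuc-LNP mice without CCl4, C9 was at 1.43 (adjusted p = 0.0514). None of the 31 genes passed in that comparison in edgeR, 3 had an unadjusted p under 0.05, DESeq2 and limma-voom called 1 each and 0.0425% of all genes passed. In fibrotic mice C6 had −1.37 with siLuc-LNP (SE 0.305, adjusted p = 0.0532) and −2.14 with siHAS2-LNP (SE 0.321, adjusted p = 5.10e-04), each against CCl4 mice.

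Beside C6, Marco, a scavenger receptor of Kupffer cells, separated the same mice, at 0 to 0.801 CPM with nanoparticles and 1.23 to 33.4 CPM without. It fell by 4.46 in siLuc-LNP against control mice (SE 0.719, adjusted p = 0.00232). The labels record nanoparticles in the tail vein injection for the mice with low C6, PBS for control mice, and no such injection for the 4MU and CCl4 groups. Whether the mice given nanoparticles were also gavaged, or differed in cohort or date, is not given in the sources used here. Every group given nanoparticles also received siRNA in them, and no group was given empty particles. The particle, its siRNA and any difference in gavage, cohort or date therefore cannot be told apart. C6 lies at chr15:4756525-4844580 (GRCm39), on the same chromosome as C7 at chr15:5017233-5093252 and C9 at chr15:6474795-6547009. C7 was too low for a test, at 0 to 1.02 CPM.

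**Figure D5:**
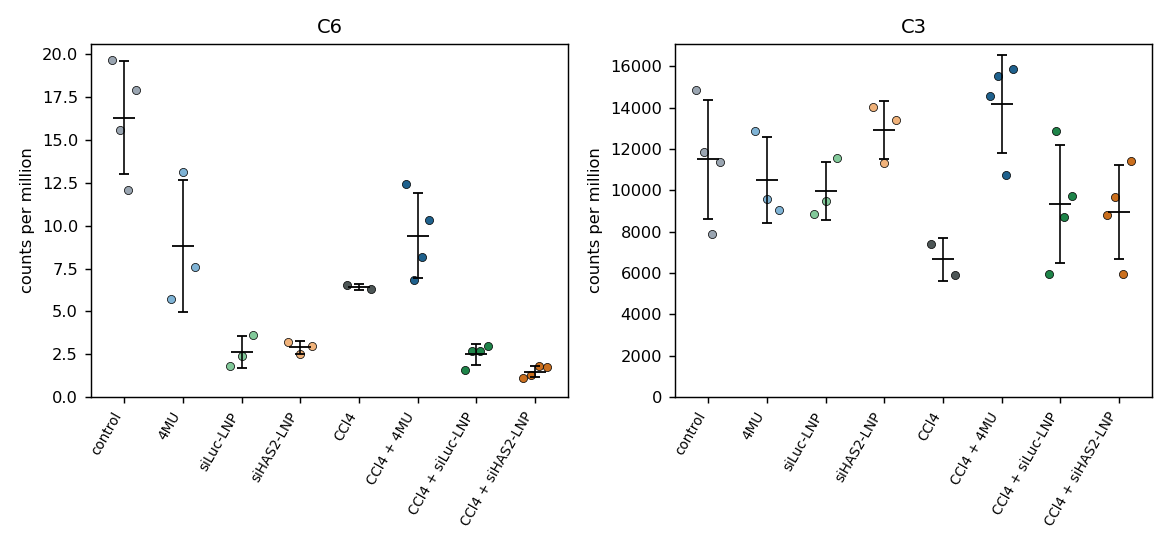
CPM (y axes, from 0) of C6 and C3 in every mouse of the 8 groups (x axes), with the mean and SD of each group. C6 is low in all 4 groups given nanoparticles, at 1.13 to 3.64 CPM, whereas C3 spans 5955 to 14019 CPM with nanoparticles and 5920 to 15853 CPM without.

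Other complement genes, 24 in a list set beside the 33, of which 20 were tested, gave a wider view. In the mean CCl4 effect 17 of the 20 passed, 6 higher and 11 lower, where 51.9% of all genes passed, 26.3% higher and 25.6% lower. The 6 that rose were Itgax (CD11c, a chain of complement receptor 4) by 2.90, Cr2 (complement receptor 2) by 2.69, Cd93 by 1.88, Itgam (CD11b, a chain of complement receptor 3) by 1.85, Itgb2 (CD18) by 0.67 and Cr1l by 0.18. Secreted factors were among those that fell, with the collectins Colec10 (−0.66) and Colec11 (−0.65), which also feed the lectin pathway, and the carboxypeptidase N chains Cpn1 (−0.34) and Cpn2 (−0.34). C1rb (−0.77), Cd46 (−0.66), Cd59b (−0.87) and Vsig4, the complement receptor of Kupffer cells (−0.51), fell as well, and C1s2, C4a and C1qbp did not pass. With 4MU in fibrotic mice 5 of the 20 rose and none fell, where 8.28% of all genes rose, among them Cpn1 (0.62), Cpn2 (0.66) and Itgax (1.37).

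Of 14 transcription and signalling genes known to act on complement genes, 5 passed in the mean CCl4 effect, a smaller share than the 51.9% of all genes. Among them, Cebpa, a hepatocyte factor, fell by 0.65 (adjusted p = 3.72e-04) and Foxa2 fell by 0.29, whereas Spi1, which codes for PU.1, rose by 0.41 and Irf8 rose by 0.29. The genes of the acute-phase route, Stat3 (0.21), Socs3 (0.16) and Cebpb (−0.13), did not pass. In CCl4 + 4MU against CCl4 mice, Cebpb rose by 1.32 (adjusted p = 0.0334) and Foxa2 rose by 0.82 (adjusted p = 0.0211), where 18.3% of all genes passed, 8.28% higher. These 2 lists were not refitted without CCl4 mouse 2.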

How the data were processed

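Whole-liver polyadenylated RNA of 27 mice was sequenced in bulk. The deposited values are raw read counts per gene, which the authors made with Trimmomatic 0.39, HISAT2 and featureCounts on Ensembl annotation of GRCm39, without multi-mapped reads. The strand setting is not given in the sources used here. Total counts of 7044386 to 29425937 per library set the precision, and 3 counts, the limit a count of 0 allows, equal 0.104 to 0.400 CPM (counting error only).

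Gene symbols and promoter windows came from GENCODE vM39, which named 54749 of 55414 identifiers. Counts were tested with edgeR 4.0.16 (R 4.3.3, TMM, glmQLFit and glmQLFTest) in 1 fit of all 8 groups without covariates, over the 14114 genes that averaged 10 or more counts a library, with Benjamini-Hochberg adjustment and a threshold of 0.05. SE is the log2 fold change divided by the square root of F. The fit was tested on simulated data. Alternatives were DESeq2 1.42.0, limma-voom 3.58.1 with sample quality weights, other size factors and filters, the compared groups alone, a replicate block, a minimum change and each library left out. The 33 genes, the lists of other genes and the tests were chosen with earlier results of these data known. Every one of the 33 genes was accounted for, and named other genes came from the lists, of which some members are not reported here. All 34 replicate pairs differed by more than counting noise (chi-square per degree of freedom 15.28 to 415.6), so each library counted as 1 sample.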

Additional observations from a re-analysis of the deposited data

Results flagged for a closer look

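Among 124 sets of mice from groups of 4, each for 1 gene, 5 held a mouse whose gap to the others exceeded Dixon's critical value, where chance gives about 1 in 20. C1qc in control mouse 1 was 72.01 CPM against 48.04 to 52.07 CPM in the others. Mbl2 in CCl4 + 4MU mouse 3 was 520.2 CPM against 418.9 to 429.1 CPM, and Clu in CCl4 + 4MU mouse 4 was 3369 CPM against 2099 to 2188 CPM. Cfi in CCl4 + siHAS2-LNP mouse 3 was 733.1 CPM against 972.3 to 989.6 CPM, and Cd55 in CCl4 + siLuc-LNP mouse 4 was 10.8 CPM against 5.398 to 6.182 CPM.

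The change with CCl4 differed between 4MU and no treatment, by an interaction term in edgeR, for C1qc (1.28), C1ra (1.19), Masp2 (1.35), C6 (1.43) and Serping1 (1.43). All 5 calls were lost without CCl4 mouse 2.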

How the results depend on the processing

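Of 91 called results for single genes, 61 kept their call under every alternative, 42 with each library left out in turn and 40 under both, and none turned direction. Of 374 results not called, 59 were called under some alternative. A minimum change of 1 on the log2 scale left 3 genes in the mean CCl4 effect, 8 without treatment, 3 under 4MU and 5 under siLuc-LNP, and 4 for 4MU and 3 for siHAS2-LNP in fibrotic mice. At an unadjusted p under 0.05, 12 passed under 4MU, 21 for 4MU, 14 for siHAS2-LNP and 7 for siLuc-LNP in fibrotic mice, and 6 between siHAS2-LNP and siLuc-LNP there. In healthy mice 4 passed for 4MU, 7 for siLuc-LNP and 3 between the nanoparticles, and for the interactions with CCl4 17 passed for 4MU, 7 for siLuc-LNP and 6 for siHAS2-LNP. DESeq2 called 2 for siLuc-LNP in fibrotic mice, 1 between the nanoparticles in fibrotic and 1 in healthy mice, and 11 for the 4MU interaction. Limma-voom called 13 under 4MU and 1 between the nanoparticles in healthy mice. DESeq2's size factors gave 1 for siLuc-LNP and 1 between the nanoparticles in fibrotic mice. No filter gave 1 and 4 for the same pair of comparisons, 1 between the nanoparticles in healthy mice, 8 for the 4MU interaction and 1 for the siHAS2-LNP interaction, and edgeR's own filter gave 1 between the nanoparticles in fibrotic mice. The compared groups alone gave 6 under siLuc-LNP and 1 between the nanoparticles in healthy mice. The cause of these differences was not tested.

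With each library left out, the counts ran from 17 to 22 in the mean CCl4 effect, 7 to 18 without treatment, 5 to 6 under 4MU, 8 to 11 under siLuc-LNP and 7 to 10 under siHAS2-LNP. In fibrotic mice they ran from 0 to 15 for 4MU, 1 to 12 for siHAS2-LNP, 0 to 5 for siLuc-LNP and 0 to 1 between the nanoparticles. In healthy mice they were 0 for 4MU, 1 for siLuc-LNP and 0 between the nanoparticles, and for the interactions they ran from 0 to 10 for 4MU, 0 to 1 for siLuc-LNP and 0 to 0 for siHAS2-LNP. Where this left 1 CCl4 mouse, that mouse was assumed to vary like the other groups.

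The labels number the mice of each group, but same-numbered mice shared only a number. Their deviations from the group means had a median correlation of −0.019 over 83 pairs (−0.347 to 0.361), 18 above 0.1, and 5 of 27 libraries correlated best with their own number. A fit with the replicate number as a block gave 1 gene for siLuc-LNP in healthy mice, C6, and moved no other count of the 33 genes by more than 1.5 times. Depth limited Cfd and C7, and only 2 CCl4 mice limited every comparison with that group.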
